A study of Arabidopsis thaliana with 10 samples.

Results

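The 33 genes described here make, store, break down and export the carbohydrates of the Arabidopsis thaliana leaf. They were chosen by enzyme and transporter class from a table of 32824 genes: 14 of starch synthesis, 9 of starch breakdown and maltose export, 6 that make or cleave sucrose, and 4 sugar transporters. All 33 were found in the table. Of these, 31 had a mean of at least 1 FPKM (fragments per kilobase of transcript, relative to the library as a whole) and were tested. The sucrose synthases SUS3 (AT4G02280) and SUS4 (AT3G43190) lay under that minimum.

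RNA-seq libraries were made from shoots of plants kept for 10 days on Murashige and Skoog medium of reduced strength, solidified with 1% agar and holding 1% sucrose, under a treatment labelled as normal. The 5 WT libraries came from Col-0. The 5 OE libraries came from plants carrying 35S:BnaC02.TPS8, in which an oilseed rape gene named for trehalose-6-phosphate synthesis stands behind a viral promoter active in most tissues. Only 1 transgenic line was sampled; the series text calls it O2 and the sample titles OE-11. Whether the 5 samples of a genotype grew in separate containers is not stated, and p-values therefore cover only the spread among these samples.

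In a leaf, part of the carbon fixed by day is stored as starch inside the chloroplast. The route runs from fructose 6-phosphate through PGI1 and PGM1 to ADP-glucose, which ADP-glucose pyrophosphorylase makes. Starch synthases and branching enzymes then build the granule. At night the granule surface is phosphorylated, amylases release maltose and longer sugars, and maltose leaves through MEX1 to be used for sucrose. Sucrose phosphate synthase makes sucrose in the cytosol, SWEET11 and SWEET12 release it near the veins, and SUC2 loads it into the phloem. Trehalose-6-phosphate is a sugar signal whose level is known to follow that of sucrose.

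The libraries held an estimated 1.84e+07 to 2.33e+07 fragments each, for an assumed fragment length of 200 nt. All 4 markers of root hairs and endodermis were at or below 0.426 FPKM and were listed at 0 in at least 1 library, whereas the 4 markers of green tissue summed to 59600 ± 3500 FPKM in WT and 58800 ± 3300 in OE (SD, n = 5), which matches the label shoots. The 5 phloem markers summed to 221 ± 5.8 FPKM in WT and 225 ± 9.2 in OE. The weakest of the 4 green markers, LHCB2.1 (AT2G05100), was less even than their sum, at 2220 ± 289 FPKM in WT and 1770 ± 335 in OE. Clock genes, which mark the time of day, were likewise less even than the sums above. PRR7 (AT5G02810) stood at 41.2 to 47.9 FPKM in WT and 28.9 to 43.6 in OE, and the 5 evening genes summed to 209 to 269 and 203 to 221. None of the 22 markers passed the test given below, for which the root markers, LHY and PRR9 were too weak. Transcripts of the 133 plastid genome genes, which are scaled together with the nuclear ones, summed to 5116 to 42617 FPKM in WT and 4126 to 27925 in OE. The part of the clock genes and of plastid RNA in the results below was not tested.

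No member passed the test of OE against WT. The test was limma on log2(FPKM + 1) over 17713 genes, two-sided, with Benjamini-Hochberg adjustment and a threshold of 0.05; 512 of all tested genes passed it, or 2.89%, with 419 higher in OE and 93 lower. The smallest adjusted p of a member was 0.0558. At an unadjusted p under 0.05 the members numbered 8 of 31, beside 15.1% of all genes. The direction of these 8 was uneven, with 7 lower in OE beside 5.26% of all genes, and 1 higher. In 3 of 31 members, GWD1, DPE1 and SPS1F, every OE library lay below every WT library. Such a separation was seen in 5.83% of all genes in either direction and in 1.42% with OE lower. The log2 difference was below 0 in 24 of 31 members and in 49.2% of all genes, and its median was -0.08 in the members and 0.0 in all genes. In whole shoots, fewer cells of a type and less RNA per cell cannot be told apart.

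**Figure D1:**
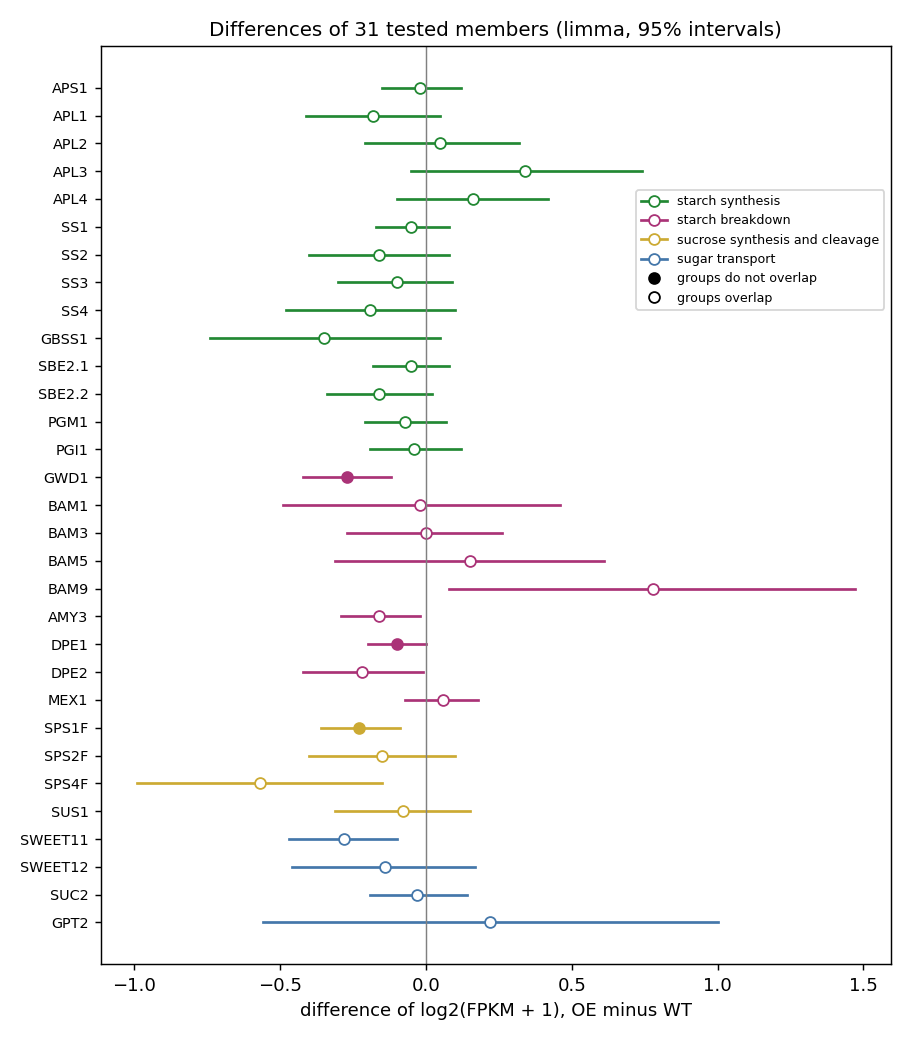
Difference of log2(FPKM + 1), OE minus WT, for the 31 tested members, coloured by role. Points are limma estimates and lines their 95% intervals; filled points mark members whose groups do not overlap. Differences run from -0.57 (SPS4F) to 0.78 (BAM9), and the 3 filled points lie left of 0.

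Starch synthesis held no member at an unadjusted p under 0.05, beside 15.1% of all genes. Of its 14 members, 11 had a log2 difference below 0, or 78.6% beside 49.2% of all genes. The median was -0.06, beside 0.0 for all genes, and the range was from -0.35 to 0.34. APS1 (AT5G48300), the catalytic small subunit of ADP-glucose pyrophosphorylase, was the most abundant member of all. Its FPKM were 195, 215, 187, 202 and 200 in WT replicates 1 to 5 and 207, 180, 210, 208 and 184 in OE. The groups overlapped across nearly their whole range, with a log2 difference of -0.02 (SE 0.06, 95% interval -0.15 to 0.12; limma adjusted p = 0.921).

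SBE2.2 (AT5G03650), a branching enzyme that sets the branch points of amylopectin, had the smallest p of the synthesis members. It stood at 50.2, 49.4, 42.4, 45.0 and 43.7 FPKM in WT and at 44.8, 40.4, 44.1, 42.4 and 34.4 FPKM in OE. Its OE replicate 5 was the lowest of the 10 libraries, and the other OE libraries lay near the lower WT ones. The log2 difference was -0.16 (SE 0.08; limma adjusted p = 0.389). The other branching enzyme, SBE2.1 (AT2G36390), averaged 54.5 ± 2.33 FPKM in WT and 52.5 ± 3.27 in OE.

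The large subunits of ADP-glucose pyrophosphorylase, which tune the enzyme, were compared as shares of their summed FPKM, a ratio within each library that no scaling of the library can move. APL1 (AT5G19220), the main large subunit of leaves, held 86.9% to 90.0% of the sum in WT and 82.0% to 86.2% in OE. The share of APL3 (AT4G39210) ran from 2.93% to 4.78% in WT and from 4.84% to 7.09% in OE. That of APL4 (AT2G21590) ran from 2.68% to 3.08% and from 3.26% to 4.21%. None of these 3 shares overlapped between the groups. They are parts of 1 sum and so are not independent, and they were picked out after 25 shares in 8 enzyme classes had been seen; the other 22 overlapped. APL2 (AT1G27680) held 4.93% ± 0.55 in WT and 5.61% ± 0.67 in OE (n = 5).

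By level, the same subunits overlapped. APL1 averaged 177 ± 14.9 FPKM in WT and 158 ± 24.4 in OE, and APL3 averaged 8.16 ± 1.75 and 10.7 ± 2.77 FPKM. APL4 averaged 5.76 ± 0.922 and 6.56 ± 0.983 FPKM, and APL2 averaged 9.96 ± 1.9 and 10.3 ± 1.17. Their limma adjusted p ran from 0.403 (APL3) to 0.879 (APL2). Of the 31-nt words of APL1 transcripts, 22.0% also occur elsewhere, most of them in the noncoding AT5G19221, which did not exceed 1.05 FPKM in any library.

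SS1 (AT5G24300), which extends short glucan chains, supplied 60.3% ± 1.1 of the summed FPKM of the 5 member starch synthases in WT and 62.7% ± 3.1 in OE. That sum leaves out SS5, not a member, at 24.5 FPKM in WT and 23.3 in OE. GBSS1 (AT1G32900), the granule-bound synthase that makes amylose, was the least abundant of the 5. Its FPKM, given after its values were seen, were 10.5, 9.51, 7.5, 7.54 and 6.66 in WT and 8.7, 7.25, 7.22, 5.29 and 3.91 in OE. The groups overlapped, with a log2 difference of -0.35 (SE 0.18; limma adjusted p = 0.413). SS2 (AT3G01180) averaged 11.1 ± 1.61 and 9.84 ± 1.28 FPKM, SS3 (AT1G11720) 14.7 ± 1.55 and 13.6 ± 1.32, and SS4 (AT4G18240), which takes part in starting granules, 22.0 ± 1.89 and 19.4 ± 4.1. SS3 shares 5.5% of its 31-nt words with the noncoding AT1G04873, which averaged 29.7 FPKM in WT and 14.8 in OE. PGM1 (AT5G51820) and PGI1 (AT4G24620), the sugar phosphate enzymes at the head of the route, averaged 82.6 ± 3.45 and 65.4 ± 5.17 FPKM in WT. In OE they averaged 78.9 ± 6.43 and 63.7 ± 4.06 FPKM.

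Starch breakdown held 5 of the 8 members at an unadjusted p under 0.05, with 4 lower in OE and 1 higher. These were 5 of its 9 members, beside 15.1% of all genes in either direction and 5.26% with OE lower. Of the 9, 6 had a log2 difference below 0, or 66.7% beside 49.2% of all genes. The median was -0.02, beside 0.0 for all genes. GWD1 (AT1G10760), the glucan, water dikinase that phosphorylates starch at the start of its breakdown, had the smallest p of all members. It stood at 125, 128, 125, 115 and 114 FPKM in WT and at 102, 99.0, 105, 109 and 87.6 FPKM in OE. Every OE library was below the lowest WT library, and OE replicate 5 was the lowest. The ratio of the means was 0.829, and the log2 difference was -0.27 (SE 0.07, 95% interval -0.42 to -0.12; limma adjusted p = 0.0558). Among the alternatives its limma adjusted p ran from 0.0391 to 0.228; of the scalings and filters run, it was under 0.05 with median-ratio scaling, quantile normalization and a minimum of 5 FPKM. Without the 3 libraries of highest plastid RNA the log2 difference was -0.30.

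DPE1 (AT5G64860), the plastid disproportionating enzyme that works on short glucans left by the amylases, showed the smallest spread of all members. Its FPKM were 67.8, 63.7, 64.7, 67.7 and 64.6 in WT and 62.0, 59.9, 61.2, 61.0 and 62.1 in OE. The groups were separate, with a small gap and a log2 difference of -0.10 (SE 0.05; limma adjusted p = 0.327). DPE2 (AT2G40840), the cytosolic enzyme that takes up maltose, averaged 91.2 ± 12.2 FPKM in WT and 78.0 ± 5.9 in OE (log2 difference -0.22, limma adjusted p = 0.292). AMY3 (AT1G69830), the plastid alpha-amylase, averaged 93.4 ± 5.16 and 83.6 ± 5.41 FPKM (log2 difference -0.16, limma adjusted p = 0.244).

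**Figure D2:**
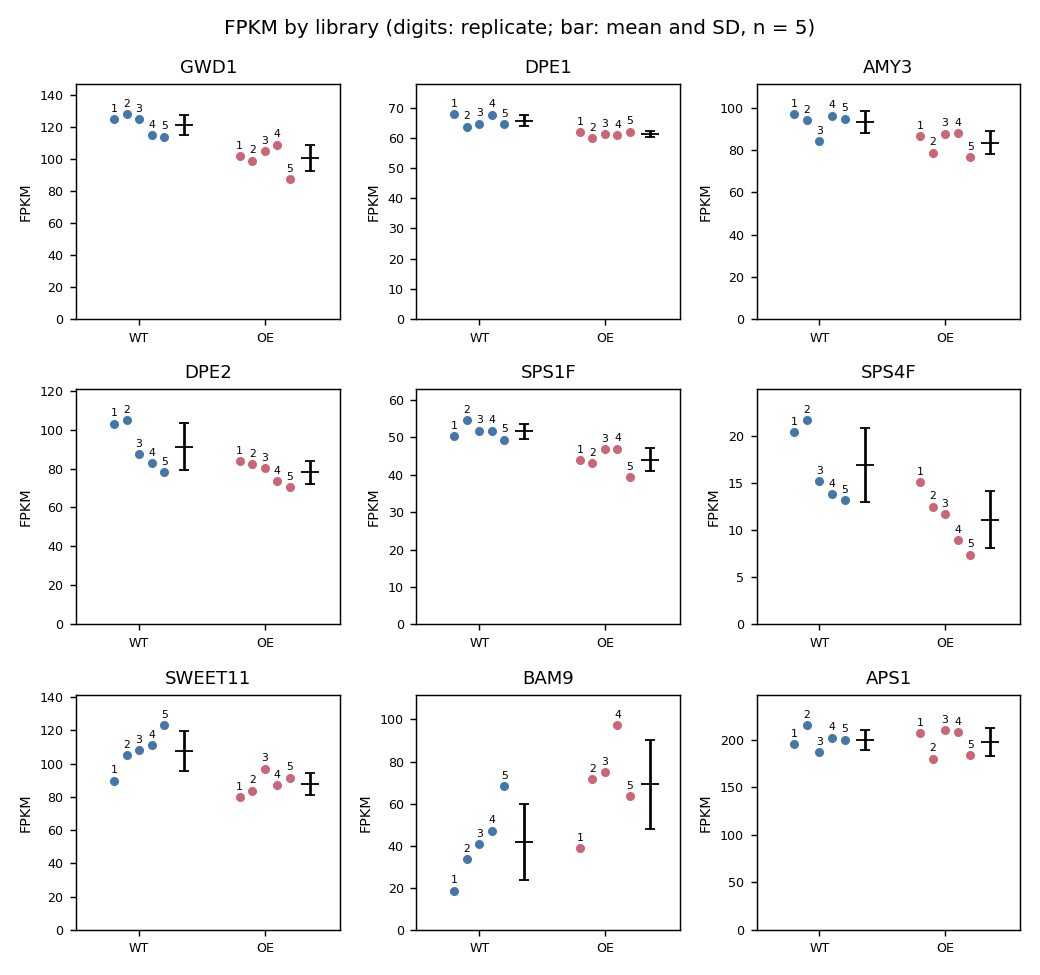
FPKM of 9 members in each library, with the replicate number above each point and the mean and SD of each group (n = 5) as a bar. GWD1, DPE1 and SPS1F separate the groups, whereas APS1, at 180 to 215 FPKM, does not.

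None of the 4 beta-amylases among the members passed the test, and their log2 differences lay on both sides of 0. BAM3 (AT4G17090), the main maltose-releasing enzyme of leaves at night, averaged 47.4 ± 7.75 FPKM in WT and 47.2 ± 7.02 in OE. BAM1 (AT3G23920), a plastid enzyme known from guard cells and stressed leaves, averaged 40.6 ± 13.9 and 39.3 ± 8.7 FPKM. BAM5 (AT4G15210), which acts outside the plastid, averaged 2.95 ± 1.17 and 3.31 ± 0.829 FPKM. Limma adjusted p of these 3 ran from 0.786 (BAM5) to 0.992 (BAM3).

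BAM9 (AT5G18670), a plastid family member thought to lack amylase activity, was the most variable of them and had the largest log2 difference of all members. It is described after its values were seen. It stood at 18.7, 33.7, 40.6, 47.2 and 68.2 FPKM in WT and at 38.8, 71.5, 74.9, 97.2 and 63.6 FPKM in OE. The groups overlapped widely, since WT replicate 5 was above 2 OE libraries and OE replicate 1 was below 3 WT libraries. The log2 difference was 0.78 (SE 0.31, 95% interval 0.08 to 1.47; limma adjusted p = 0.263). Over all alternatives the limma adjusted p of BAM9 ran from 0.0468 to 0.633. It was under 0.05 only with the replicate number as a block. BAM9 took 30.4% ± 8.7 of the summed FPKM of the 4 member beta-amylases in WT and 43.0% ± 9.2 in OE. That sum leaves out the beta-amylases that are not members, such as BAM2 (20.3 FPKM in WT and 22.9 in OE) and BAM4 (22.7 and 17.0).

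MEX1 (AT5G17520), the maltose exporter of the chloroplast envelope, averaged 24.7 ± 1.45 FPKM in WT and 25.7 ± 0.771 in OE (log2 difference 0.06, SE 0.06). Of its 31-nt words, 42.8% also occur in AT5G17523, listed at 7.65 to 10.4 FPKM, so how reads were split between both genes is uncertain. BAM3 shares 23.5% of its words with AT4G06665, a noncoding gene on the opposite strand at 45.5 to 78.5 FPKM. Whether strand was used in counting is not given, so reads of that overlap cannot be assigned with certainty. Apart from APL1, the other members shared at most 5.5% of their words with another gene.

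Synthesis was set against breakdown in each library. The 14 synthesis members summed to 791 ± 47 FPKM in WT and 751 ± 67 in OE, and the 9 breakdown members to 529 ± 17 and 508 ± 30 (n = 5). Both sums were lower in OE by less than 1 pooled SD. The mean log2(FPKM + 1) of synthesis minus that of breakdown was -0.433 ± 0.14 in WT and -0.514 ± 0.14 in OE, a difference of -0.0817 with a pooled SD of 0.14. Without BAM5, which acts outside the plastid, and BAM9, thought to lack amylase activity, the difference was 0.0439 with a pooled SD of 0.11. Its sign thus turned. DPE2, which is also outside the plastid, was kept, and BAM9 had the largest log2 difference of all members, at 0.78. As the log2 ratio of the sums, the difference in balance was -0.0178. By none of these measures did the balance between the groups differ by more than the spread between libraries.

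**Figure D3:**
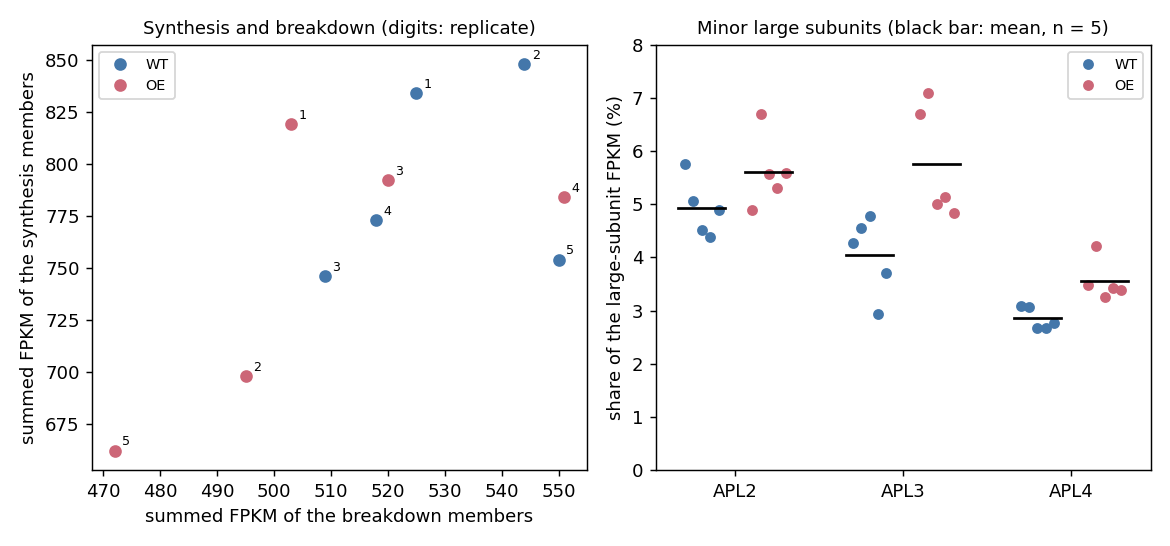
Left, summed FPKM of the 14 synthesis members against that of the 9 breakdown members, 1 point per library; neither axis starts at 0. Right, APL2, APL3 and APL4 as a percent of the FPKM of the 4 large subunits. WT and OE points mix on the left; on the right APL3 starts at 4.84% in OE and ends at 4.78% in WT.

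Of the genes that make sucrose, the sucrose phosphate synthases were lower in OE as a sum. SPS1F, SPS2F and SPS4F together came to 64.8 to 78.4 FPKM in WT and 48.1 to 61.2 in OE, without overlap. This was the only 1 of 8 class sums whose groups did not overlap, and it was picked out after the 8 sums had been seen. SPS1F supplied 73.5% of the sum in WT and 77.7% in OE, so the sum is not independent of that gene. No sum was tested. SPS1F (AT5G20280), the most abundant of the 3, stood at 50.4, 54.7, 51.8, 51.8 and 49.4 FPKM in WT and at 43.9, 43.1, 46.9, 47.0 and 39.4 FPKM in OE. All OE libraries lay below all WT libraries. The ratio of the means was 0.854 and the log2 difference was -0.23 (SE 0.06, 95% interval -0.36 to -0.09; limma adjusted p = 0.0828). Among the alternatives its limma adjusted p ran from 0.0456, with median-ratio scaling, to 0.367.

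SPS4F (AT4G10120), described after its values were seen, had the lowest log2 difference of the members. It stood at 20.4, 21.7, 15.2, 13.8 and 13.2 FPKM in WT and at 15.1, 12.5, 11.7, 8.91 and 7.41 FPKM in OE. Only OE replicate 1 reached into the WT range. The log2 difference was -0.57 (SE 0.19, 95% interval -0.99 to -0.15; limma adjusted p = 0.163). Over all alternatives the limma adjusted p of SPS4F ran from 0.0135 to 0.543. It was under 0.05 only with the replicate number as a block. SPS2F (AT5G11110) averaged 1.95 ± 0.193 and 1.68 ± 0.382 FPKM. As a share of the SPS sum, SPS1F took 73.5% ± 3.7 in WT and 77.7% ± 4.4 in OE.

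The sucrose synthases, which cleave sucrose in tissues that import it, were weakly expressed in these shoots. SUS1 (AT5G20830) averaged 8.17 ± 1.2 FPKM in WT and 7.66 ± 0.883 in OE. It made up 88.0% and 88.7% of the sum of SUS1, SUS3 and SUS4. That sum leaves out SUS2, SUS5 and SUS6, which are not members and averaged 0.621, 1.04 and 0.647 FPKM in WT and 0.67, 0.788 and 0.591 in OE. SUS3 averaged 0.543 ± 0.193 and 0.47 ± 0.381 FPKM, from an estimated 14 to 77 fragments. SUS4 averaged 0.579 ± 0.241 and 0.535 ± 0.204 FPKM, from 15 to 52 fragments. Neither was tested, since both lay under the minimum level.

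Among the transporters, SWEET11 (AT3G48740), a sucrose exporter of phloem parenchyma, had the smallest p. It stood at 89.7, 105, 108, 111 and 123 FPKM in WT and at 79.8, 83.8, 97.0, 87.1 and 91.6 FPKM in OE. Only WT replicate 1 lay within the OE range. The ratio of the means was 0.818 and the log2 difference was -0.28 (SE 0.08, 95% interval -0.47 to -0.10; limma adjusted p = 0.111). Without WT replicate 1 the log2 difference was -0.35 (limma adjusted p = 0.0328). That library is the one within the OE range, so leaving it out separates the groups by choice, and no conclusion is drawn from it. With any other library left out, the limma adjusted p ran from 0.104 to 0.243. Over all alternatives it ran from 0.0328 to 0.485. SWEET12 (AT5G23660), its close relative, averaged 24.9 ± 5.35 and 22.2 ± 2.43 FPKM. SWEET11 made up 81.3% ± 2.0 of the FPKM of both in WT and 79.8% ± 2.1 in OE.

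SUC2 (AT1G22710), the companion cell carrier that loads sucrose into the phloem, was the most abundant of the 4 member transporters over all libraries. Its FPKM were 101, 103, 120, 104 and 95.1 in WT and 107, 113, 106, 92.7 and 95.4 in OE. The groups overlapped across nearly their whole range. The log2 difference was -0.03 (SE 0.08, 95% interval -0.19 to 0.14; limma adjusted p = 0.908). The phloem markers, at 221 and 225 FPKM as sums, likewise differed by less than their pooled SD of 7.7. GPT2 (AT1G61800), a plastid translocator that brings in glucose 6-phosphate, ran from 1.05 to 4.19 FPKM in WT and from 0.559 to 5.18 in OE. It had the widest spread within groups of all members, 0.65 on the log2 scale, from an estimated 21 to 201 fragments.

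Ordered by mean FPKM over the 10 libraries, the members spanned from 199 (APS1) through 167 (APL1) and 111 (GWD1) to 0.507 (SUS3). SUC2 (104) and SWEET11 (97.6) followed GWD1, and the ranges of these 3 overlapped. AMY3 (88.5), DPE2 (84.6), SS1 (83.8) and PGM1 (80.8) came next, and their ranges over the libraries overlapped. In the middle stood BAM9 (55.4), SBE2.1 (53.5), SPS1F (47.9), BAM3 (47.3), SBE2.2 (43.7) and BAM1 (40.0). The most abundant gene of each of the 8 classes, by group mean, was the same in both groups except among the beta-amylases. There BAM3 was above BAM9 in WT replicates 1, 2 and 3 and in OE replicate 1, and BAM9 was above BAM3 in the other 6 libraries. By mean, BAM3 came first in WT and BAM9 in OE, but without WT replicate 1 BAM9 came first in WT as well, at 47.4 FPKM beside 44.8.

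Within each genotype, some libraries were extreme for many members. OE replicate 5 was the lowest OE library for 20 of 31 members, or 64.5%, beside 35.0% of all genes. OE replicate 1 was the highest for 15, or 48.4%, beside 23.3% of all genes, and 23 members, or 74.2%, were highest in WT replicate 1 or 2, beside 45.6% of all genes. The 10 members lowest in replicate 5 of both groups, 32.3% beside 8.01% of all genes, were SS1, SS2, SS3, GBSS1, PGI1, GWD1, BAM3, DPE2, SPS1F and SPS4F. BAM9 and SWEET11 were lowest in replicate 1 of both, which is 6.45% of the members beside 7.71% of all genes. The median SD within groups was 0.16 on the log2 scale for the members and 0.17 for all genes, and it ran from 0.03 (DPE1) to 0.65 (GPT2). In 11 of 31 members, or 35.5%, the difference between the groups was over 1 such SD, beside 28.9% of all genes.

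**Figure D4:**
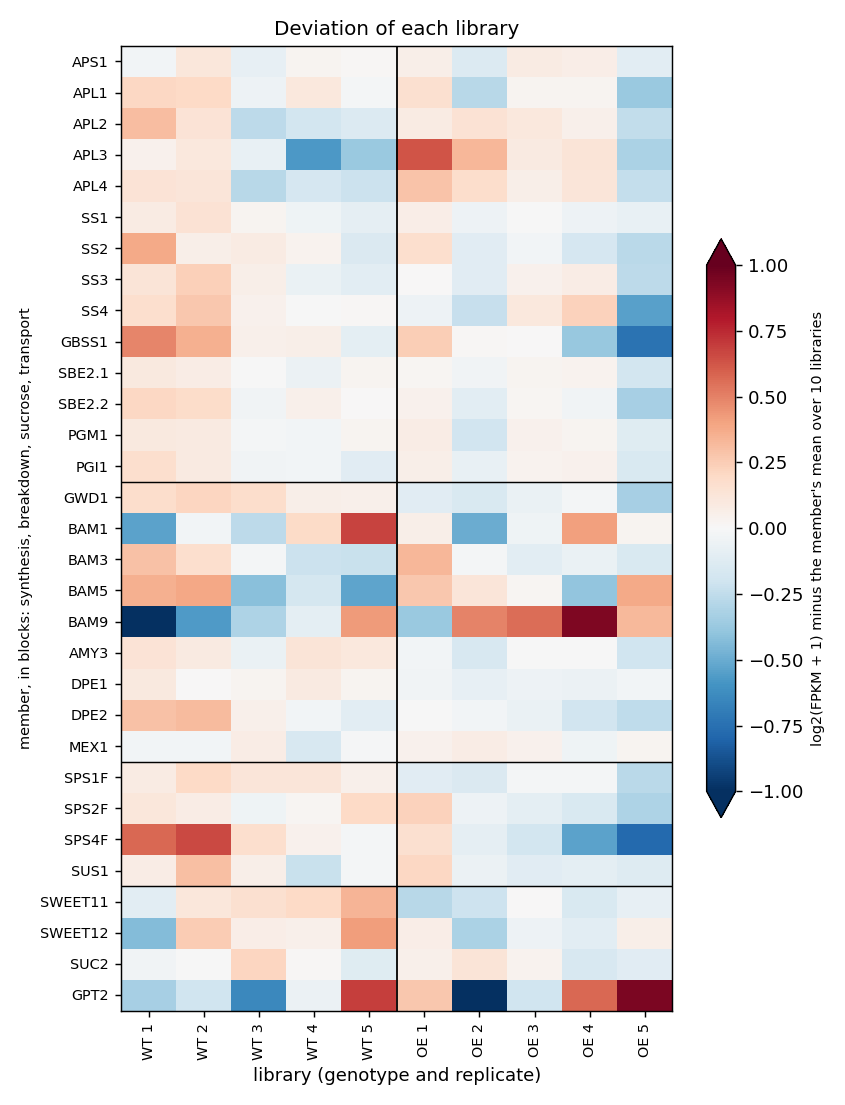
Deviation of log2(FPKM + 1) from each member's mean over the 10 libraries; columns are libraries, rows the 31 tested members in blocks by role, and the colour scale ends at -1 and 1. OE 5 is mostly blue, and BAM9 and GPT2 show the strongest colours.

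A list of 61 other genes of these routes was read from the same fit. Of the 49 with a mean of at least 1 FPKM, 1 passed the test, beside 2.89% of all tested genes. The gene was PTST1 (AT5G39790), PROTEIN TARGETING TO STARCH, which brings GBSS1 to the granule. PTST1 stood at 9.74, 10.3, 9.96, 10.7 and 10.1 FPKM in WT and at 12.3, 12.8, 11.8, 14.0 and 14.5 in OE. It rose without overlap, with a log2 difference of 0.33 (SE 0.07, 95% interval 0.18 to 0.49; limma adjusted p = 0.0299). The call ended without WT replicate 1, 2, 3 or 5 and without OE replicate 2, 4 or 5, each left out alone, with limma adjusted p between 0.057 and 0.0819. Over all alternatives the adjusted p ran from 0.02 to 0.235. Its partner GBSS1 had a log2 difference of -0.35 that did not pass.

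PWD (AT5G26570), the dikinase that acts on starch after GWD1, stood at 69.4, 72.1, 68.3, 70.8 and 68.0 FPKM in WT and at 61.4, 55.4, 63.0, 66.9 and 55.1 in OE. As for GWD1, no OE library reached the WT range, but the limma adjusted p was 0.114 (log2 difference -0.21, SE 0.06). With median-ratio scaling the limma adjusted p of PWD was 0.0456. TPT (AT5G46110), the triose phosphate translocator that exports newly fixed carbon, averaged 857 ± 42.4 FPKM in WT and 758 ± 23.7 in OE, also without overlap (log2 difference -0.18, limma adjusted p = 0.0758). The plastid glucose exporter pGlcT (AT5G16150), named after its values were seen, also had every OE library below every WT library, at 124 ± 9.1 and 109 ± 3.16 FPKM. Its limma adjusted p was 0.132, and ran from 0.0711 to 0.275 over the alternatives. Such a separation with OE lower was seen in 3 of the 49 genes, beside 1.42% of all genes. In either direction it was seen in 4, beside 5.83% of all genes. Sucrose phosphatase AT2G35840 averaged 44.3 ± 4.19 and 40.7 ± 2.48 FPKM, and the cytosolic invertase CINV2 (AT4G09510) 11.6 ± 2.46 and 13.5 ± 1.9 FPKM. These 2 had the smallest p of their roles, and neither passed (limma adjusted p = 0.523 and 0.527).

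The genes of the list with higher means in OE, also named after their values were seen, included BE1 and SWEET15. BE1 (AT3G20440), a relative of the branching enzymes, averaged 8.59 ± 1.38 FPKM in WT and 12.1 ± 1.74 in OE, with a log2 difference of 0.46 (SE 0.13; limma adjusted p = 0.0847). It passed with quantile normalization and with median-ratio scaling, and over all alternatives its limma adjusted p ran from 0.0281 to 0.303. SWEET15 (AT5G13170), a sucrose exporter known from senescing leaves and seeds, stood at 3.96, 4.7, 2.36, 1.36 and 2.11 FPKM in WT and at 8.13, 5.91, 5.16, 4.93 and 4.58 FPKM in OE. Only the lowest OE library reached into the WT range. Its log2 difference of 0.84 was the largest of the list (SE 0.23; limma adjusted p = 0.0877, from 0.0229 to 0.19 over the alternatives).

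Over the 49 genes, 9 had an unadjusted p under 0.05, with 4 higher and 5 lower in OE, beside 15.1% of all genes in either direction. Their median log2 difference was -0.01. In this list the 16 tested breakdown genes had a median of -0.15 and the 9 synthesis genes one of 0.02. In the members the order was the other way, at -0.02 for breakdown and -0.06 for synthesis, and neither contrast was tested.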

How the data were processed

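Per the submitters' processing notes, the tools used upstream include kallisto 043.1, sleuth, FastQC, Trimmomatic 0.36 and R 3.5.1. What each did, and the build and annotation, is not given in the sources used here. The authors deposited FPKM per gene, scaled per kilobase and to the library total, as the table's name states, in 1 column per sample. Groups and replicate numbers come from the sample titles. No sample columns were identical.

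Depth was estimated from the value of 1 fragment in weak genes that have 1 transcript, of 800 nt or more. Transcripts and names came from RefSeq TAIR10.1, which matched 32539 of 32824 identifiers, all 33 members among them. Shared words are 31-nt stretches found in another gene's transcripts.

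Genes with a mean of at least 1 FPKM were fitted with limma 3.58.1 in R 4.3.3 on log2(FPKM + 1), a scale that understates changes of weak genes, with a variance trend and no covariate. The fit was also run on simulated data with independent noise for each gene. That setting cannot show how it performs where many genes vary together by library, so no conclusion is drawn from it. Sums, shares and the balance got no test. Members and lists were chosen with earlier results of these data known. Values in every library are given for members past the threshold, those without overlap, and the smallest p and the most abundant of each role. Other genes are named if past the threshold or with the smallest p of their role; further genes, marked in the text, were named after their values were seen. Same-numbered WT and OE libraries had correlated deviations of -0.09 to 0.2, over 0.1 in only 2 of 5 pairs, so the numbers were not taken as pairs. Alternatives were other pseudocounts, filters, scalings, variance settings, a block and left-out libraries.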

Additional observations from a re-analysis of the deposited data

Results flagged for a closer look

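In 78 groups of 5 libraries (members and other genes named), 6 held a highest or lowest library set apart from the other 4 by Dixon's criterion, which chance meets in about 1 group in 20. APL2 (AT1G27680) had 8.28 FPKM in OE replicate 5, beside 10.4 to 11.2 in the other OE libraries. AT2G35840, a sucrose phosphatase gene, had 36.4 FPKM in the same library, beside 41.0 to 42.7. In OE replicate 1, BAM3 (AT4G17090) stood at 59.4 FPKM beside 42.0 to 46.2 in the other OE libraries. The same library held 9.21 FPKM of SUS1 (AT5G20830), beside 7.1 to 7.51, and 1.14 FPKM of SUS3 (AT4G02280), beside 0.227 to 0.407. AMY3 (AT1G69830) was at 84.4 FPKM in WT replicate 3, beside 94.1 to 97.0 in the other WT libraries.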

How the results depend on the processing

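The count of members past limma's adjusted threshold was 0 in the reported fit, 1 (GWD1) with a minimum of 5 FPKM and with quantile normalization, and 2 (GWD1 and SPS1F) with median-ratio scaling. With the replicate block it was 4 (GWD1, SWEET11, SPS4F and BAM9, with adjusted p of 0.0429, 0.0359, 0.0135 and 0.0468), although the labels do not say what a number marks and only 4 of 10 libraries correlated best with their own number. Other genes of the routes numbered 1 past the threshold as reported, 2 with quantile normalization, 3 with median-ratio scaling and 4 with the replicate block. All genes numbered 512 as reported and 781 with the block. Without the 3 libraries of highest plastid RNA, 0 of all genes, 0 members and 0 other genes of the routes passed, with 2 members at an unadjusted p under 0.05. Leaving out each library in turn gave 204 to 534 genes, 0 to 1 members (1 without WT replicate 1) and 0 to 1 other genes; the count of all genes was 293 and 278 without WT replicates 2 and 5, and 204 and 271 without OE replicates 2 and 4. Median log2 differences of the members stayed between -0.10 and -0.05 in all alternatives run. Over the members, 586 values were recomputed: 559 kept their direction and side of the threshold, 9 came to pass it and 18 changed sign. Those sign changes all concern members whose log2 difference in the reported fit lay between -0.04 (PGI1) and 0.05 (APL2). The recomputed values were not all so small, BAM1 moving furthest. Leaving out a library moved APL2 from -0.0 to 0.14, APS1 from -0.04 to 0.01, BAM1 from -0.15 to 0.15, BAM3 from -0.09 to 0.07, PGI1 from -0.07 to 0.0 and SUC2 from -0.06 to 0.02, and without the 3 libraries APS1 and SUC2 were at 0.0. The synthesis minus breakdown difference ran from -0.13 to -0.027 when a library was left out, and it was 0.044 without BAM5 and BAM9. The cause of these changes was not tested. The fewest estimated fragments lay behind SUS3, SUS4 and GPT2.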
